A study of Mus musculus with 9 samples.

Results

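Interferon-stimulated genes were examined in RNA from the heart apex of mice given a viral vector that carries the cytokine oncostatin M. The list held 35 genes, chosen by symbol for their known roles as interferon-induced transcription regulators, nucleic acid sensors, antiviral effectors, enzymes of ISG15, ubiquitin and ADP-ribose, and GTPases. Of these, 34 were among the 13192 genes of the deposited count table, all 34 passed the filter on low counts, and Rnf213 was not analysed here. Every gene in that table had more than 0.5 CPM (a library's counts rescaled to the same total) in at least 4 of the 9 libraries, so the counts below cover 34 genes that are above that level and not the whole list.

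All mice were wild-type male C57BL/6J and received 1e+11 particles of adeno-associated virus (AAV) in the right gastrocnemius, a calf muscle, at 10 weeks of age. Hearts were taken 12 weeks later. The AAV-Null group (4 libraries) received a control vector and the AAV-Osm group (5 libraries) a vector with the oncostatin M gene, so the controls also carried AAV and no uninjected hearts were compared. The sources used here give 5 samples submitted per group, against these 4 AAV-Null libraries. The sources used here do not give the promoter and serotype of the vectors. Osm was not analysed here, and the labels could not be checked by the delivered transcript. Totals ran from 11841106 to 30625134 counts per library. Each library title carries a different code, but no label says whether a code stands for a separate animal. The p-values therefore cover the spread from library to library, which may be technical.

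Type I interferons are secreted by cells that sense viral or other foreign nucleic acid. Type I interferons act through JAK kinases on a complex that contains STAT2 and IRF9 and binds the interferon-stimulated response element (ISRE) near target genes. Interferon gamma acts on genes with the gamma-activated site (GAS). The induced proteins block viral entry, translation and release, modify other proteins with ISG15, and keep the sensors and transcription factors of the pathway ready. Oncostatin M belongs to the interleukin-6 family and signals through gp130, JAK kinases and mainly STAT3. The comparison of AAV-Osm with AAV-Null asks whether interferon-stimulated transcripts in the heart differed between the oncostatin M vector and the control vector. Both groups received AAV in the calf muscle, so exposure to AAV itself was not compared. Where the delivered gene was expressed was not tested.

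The promoters are shown first because they carry the elements by which these genes are usually recognised. RefSeq promoter windows (assembly GRCm38.p6, the build called mm10; 250 bases before to 50 after the start of transcription) matched 28 of the 34 genes by symbol. Nlrc5, Dhx58, Zbp1, Usp18, Parp9 and Parp14 had no window in that table. ISRE letters were searched as GAAA and GAAA with any 2 bases between them and, for the other strand, as TTTC and TTTC with the same gap. GAS letters were searched as TTCNNNGAA, which reads the same on both strands. Matches of the 2 motifs may share letters. The 150 bases before the start are given below, 5′ to 3′ on the strand of the gene, for 4 genes that had an unadjusted p under 0.05 (Bst2, Gbp2, Gbp7 and Ifit1) and for 3 well-known targets (Rsad2, Isg15 and Irf1). Capitals mark ISRE and GAS letters.
Bst2 (chr8:71537473-71537622, minus): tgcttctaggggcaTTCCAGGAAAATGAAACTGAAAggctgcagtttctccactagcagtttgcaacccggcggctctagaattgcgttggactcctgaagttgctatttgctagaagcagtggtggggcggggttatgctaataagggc
Gbp2 (chr3:142620513-142620662, plus): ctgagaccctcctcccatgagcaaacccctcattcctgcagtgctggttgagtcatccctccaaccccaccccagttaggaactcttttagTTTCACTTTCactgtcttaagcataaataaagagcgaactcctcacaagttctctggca
Gbp7 (chr3:142530186-142530335, plus): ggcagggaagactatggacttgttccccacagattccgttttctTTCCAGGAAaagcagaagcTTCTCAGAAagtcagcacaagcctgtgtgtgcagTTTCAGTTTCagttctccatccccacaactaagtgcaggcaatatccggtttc
Ifit1 (chr19:34640739-34640888, plus): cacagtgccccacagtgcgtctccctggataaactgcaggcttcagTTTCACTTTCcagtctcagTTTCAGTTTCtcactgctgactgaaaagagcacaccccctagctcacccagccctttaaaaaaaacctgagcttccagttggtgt
Rsad2 (chr12:26456453-26456602, minus): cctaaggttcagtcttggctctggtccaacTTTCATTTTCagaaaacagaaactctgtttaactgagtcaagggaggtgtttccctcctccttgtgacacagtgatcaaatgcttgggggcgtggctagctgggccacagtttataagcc
Isg15 (chr4:156200819-156200968, minus): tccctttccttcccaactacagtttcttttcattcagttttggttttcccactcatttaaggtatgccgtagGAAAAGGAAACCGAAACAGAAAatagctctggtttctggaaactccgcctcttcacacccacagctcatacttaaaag
Irf1 (chr11:53769864-53770013, plus): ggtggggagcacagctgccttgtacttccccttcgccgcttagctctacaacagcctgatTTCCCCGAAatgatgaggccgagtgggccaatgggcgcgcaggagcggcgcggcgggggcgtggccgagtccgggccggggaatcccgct

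In Bst2 a GAS match and overlapping ISRE matches form 1 run of capitals, Isg15 holds overlapping ISRE matches in series, and Irf1 holds GAS letters with no ISRE in its windows. The RefSeq start of Bst2 lies 35 bases outside the start in the deposited table, and the other 6 starts are the same base in both sources. Irf1 has 2 windows in the RefSeq table, of which 1 is shown.

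ISRE letters stood in the windows of 16 of the 28 genes (57.1%), against 3.99% of the 27025 genes in the whole RefSeq table and 3.44% of its 32851 windows. The 16 were Stat2, Ifih1, Ddx58, Eif2ak2, Ifit1, Ifit3, Rsad2, Bst2, Ifitm2, Ifitm3, Isg15, Gbp2, Gbp3, Gbp7, Igtp and Irgm1. All 5 GTPase genes were among them. GAS letters stood in the windows of 11 genes (39.3%), against 9.55% of all genes and 8.30% of all windows. These were Irf1, Irf8, Eif2ak2, Adar, Ifit2, Bst2, Ifitm3, Samhd1, Ifi35, Gbp7 and Igtp. Both motifs were found in 5 genes and at least 1 of them in 22. In Ifih1, Ddx58, Eif2ak2 and Ifitm3 the ISRE letters lay after the start of transcription, and in the other 12 genes before it. A letter match describes the sequence and is not a measurement of binding.

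**Figure D1:**
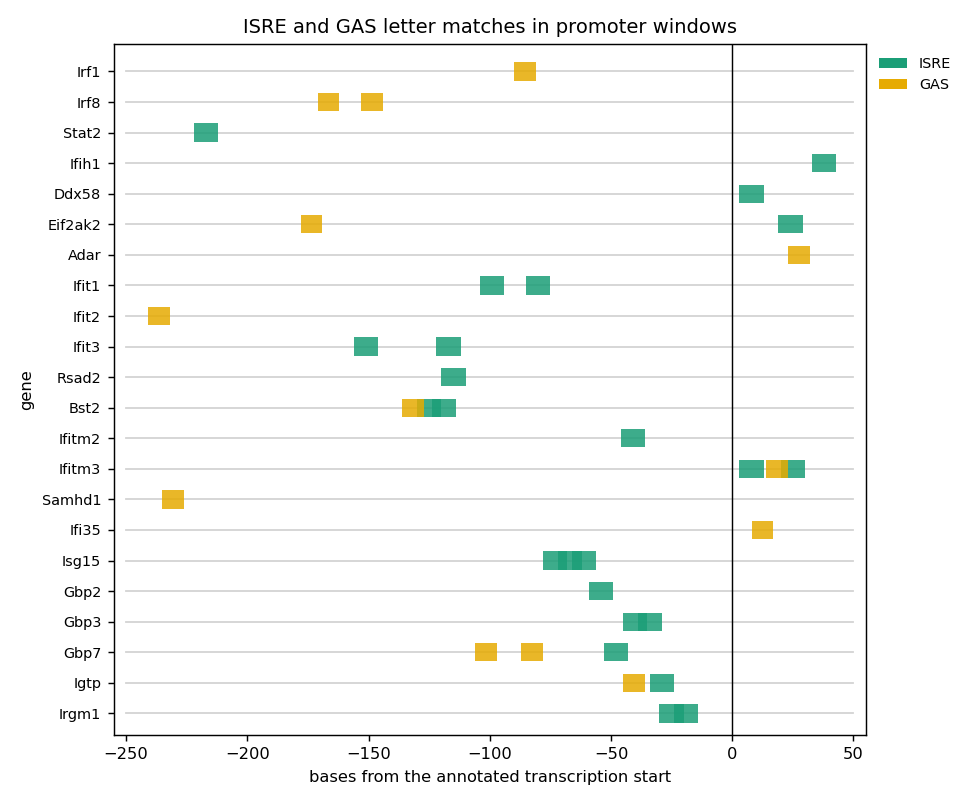
Position of ISRE (green) and GAS (yellow) letter matches in the RefSeq promoter windows of the 22 genes that hold at least 1, in bases from the annotated start of transcription (vertical line), with 1 row per gene. Most ISRE matches lie before the start, while those of Ifih1, Ddx58, Eif2ak2 and Ifitm3 lie after it.

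Levels were compared between genes as CPM per kilobase of summed exon length, where CPM is scaled by edgeR's TMM factors. The most abundant genes were Ifitm3 and Ifitm2, membrane proteins that hinder viral entry, at 219 ± 40.5 and 171 ± 36.1 CPM per kilobase (SD over 9 libraries). They lay at percentiles 97.3 and 96.8 of all genes in the table. Bst2, which encodes tetherin, a protein that holds budding virus at the cell surface, followed at 33.3 ± 7.55, then Ifi35 at 19.6 ± 4.13, Rsad2 at 16.3 ± 4.40 and Irf7 at 11.5 ± 3.15. At the low end were Dhx58, an RNA sensor related to RIG-I, at 0.681 ± 0.189 and Nlrc5, the activator of MHC class I genes, at 0.418 ± 0.101. In this order of 34 genes, 32 of the 33 neighbouring pairs overlapped in their ranges over the libraries, and the exception was Ifitm2 above Bst2. The median of the 34 genes was 5.03 CPM per kilobase against 4.4 for all genes, and 18 genes lay above and 16 below the latter.

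**Figure D2:**
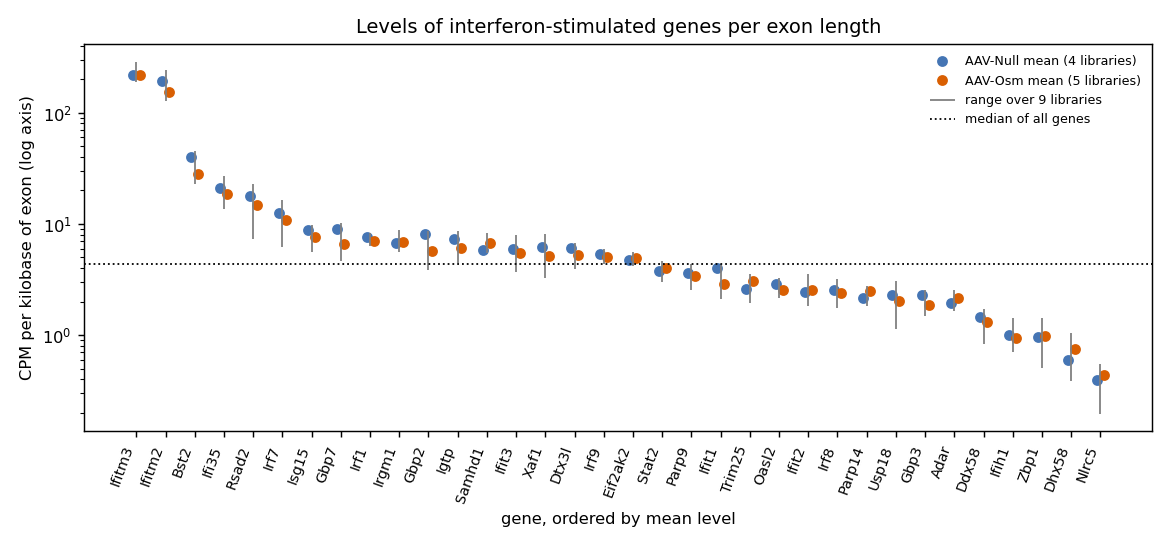
Level of each of the 34 genes as CPM per kilobase of exon (logarithmic axis), in order, with the mean of each group as a point, the range over 9 libraries as a line and the median of all genes dotted. Ifitm3 and Ifitm2 stand above the others at 219 and 171, and the order ends with Nlrc5 at 0.418.

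None of the 34 genes passed the test between the groups. In edgeR's quasi-likelihood F test, with Benjamini-Hochberg adjustment over 13192 genes, 0 were called higher and 0 lower at an adjusted p under 0.05. Of all genes, 16 passed (0.121%), with 0.0834% called higher and 0.0379% lower. DESeq2 also called 0 of the 34 (0.387% of all genes, 0.182% higher and 0.205% lower). Limma-voom with quality weights called 0 higher and 1 lower, where it called 1.27% of all genes, 0.592% higher and 0.675% lower. At an unadjusted p under 0.05 in edgeR, 0 genes had a higher value in AAV-Osm and 4 (Bst2, Gbp2, Gbp7 and Ifit1) a lower one, against 2.89% and 3.09% of all genes (5.97% in either direction). At the same level limma-voom with quality weights gave 3 of the 34 higher (Adar, Samhd1 and Parp14) and 7 lower. Its share of all genes at that level was not counted. The groups did not overlap in CPM for Bst2 and Gbp2, 2 of the 34, both with the AAV-Osm values below (1.23% of all genes), and for 0 with AAV-Osm above (1.05%, or 2.28% in either direction).

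The size of a possible difference was limited by these data. Log2 fold changes, AAV-Osm over AAV-Null, ran from -0.53 to 0.31, with a median of -0.13 against 0.01 for all genes. They were below 0 for 22 genes (64.7%) and above 0 for 12, where 48.1% of all genes were below 0. The 95% interval stayed within 2-fold in either direction for all 34 genes, as it did for 88.0% of all genes. It stayed within 1.5-fold for 15 (51.6% of all genes). An upper bound under 1.5-fold higher was found for 30, the exceptions being Nlrc5, Dhx58, Zbp1 and Trim25. The share of all genes with such an upper bound was not counted. Lower bounds went beyond 1.5-fold lower for several genes, among them Gbp2 (log2 -0.85) and Gbp7 (log2 -0.87). The widest bounds were 1.85-fold lower for Ifit1 and 1.86-fold higher for Dhx58. In whole tissue, fewer cells of a type and less RNA per cell cannot be told apart.

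The median depended on which libraries entered. With each library left out in turn it stayed below 0, between -0.17 and -0.08, and was nearest to 0 without AAV-Null 4. Without both AAV-Null 4 and AAV-Osm 5 it was -0.03, with 17 genes below 0 and 17 above, and without both AAV-Null 3 and AAV-Null 4 it was -0.04, with 18 below and 16 above. AAV-Null 4 and AAV-Null 3 had the highest median levels of the 34 genes and AAV-Osm 5 the lowest, so leaving them out had to move the median towards 0, and these values are no test of the difference.

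**Figure D3:**
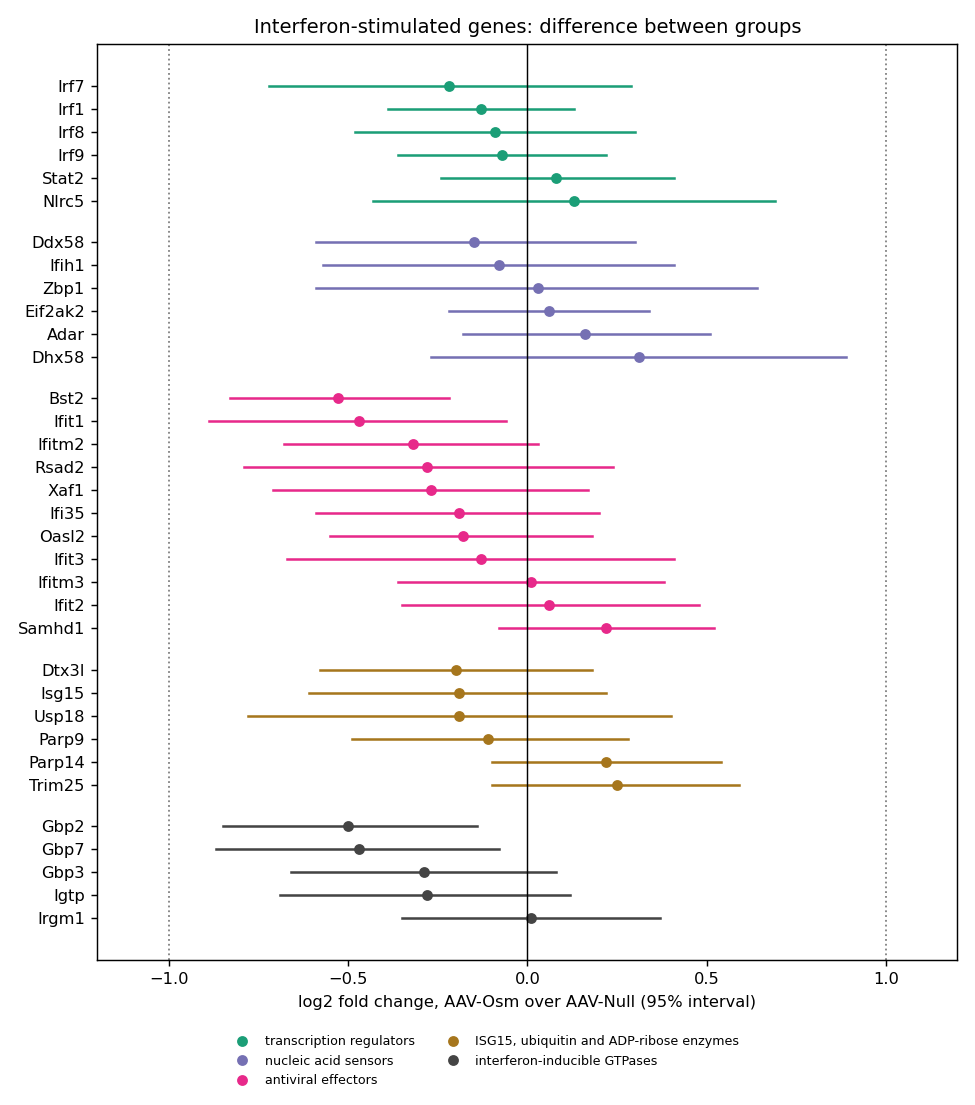
Log2 fold change of each gene, AAV-Osm over AAV-Null, with its 95% interval from the edgeR fit, in blocks by role. The values run from -0.53 for Bst2 to 0.31 for Dhx58, and every interval stays within 2-fold in either direction.

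The transcription regulators numbered 6, of which 4 had a log2 fold change below 0 and 2 above, with a median of -0.08. Irf1 encodes a factor that interferon gamma induces through GAS and that drives many of the other genes. Its level was 24.5, 23.3, 26.4 and 28.1 CPM in AAV-Null 1 to 4 and 25.5, 21.4, 23.7, 23.3 and 23.2 CPM in AAV-Osm 1 to 5. The groups overlapped, and the log2 fold change was -0.13 (SE 0.12, adjusted p = 0.951, edgeR). Irf7, the factor that amplifies type I interferon production and the most abundant of the 6 per length, was at 18.3, 17, 26.7 and 30.8 CPM in AAV-Null and 17.3, 22.6, 23.8, 24.8 and 11.6 CPM in AAV-Osm. AAV-Null 4 was the highest library and AAV-Osm 5 the lowest, with a log2 fold change of -0.22 (SE 0.24, adjusted p = 0.961). Its sign turned without these libraries, to 0.09. Irf9 and Stat2, partners in the type I complex, had log2 fold changes of -0.07 and 0.08 (SE 0.13 and 0.15). Irf8, a factor of myeloid cells, was at -0.09, and Nlrc5 at 0.13, or -0.08 without AAV-Null 4.

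Among the 6 nucleic acid sensors, 2 had a log2 fold change below 0 and 4 above, with a median of 0.04. Dhx58 was at 1.2, 2.02, 1.61 and 0.929 CPM in AAV-Null and 1.67, 1.85, 2.5, 1.48 and 1.52 CPM in AAV-Osm. Its groups overlapped and rested on 17 to 49 counts per library, and its log2 fold change of 0.31 (SE 0.27, adjusted p = 0.947) was the highest of the 34. Adar, an enzyme that edits adenosine in double-stranded RNA and thereby restrains sensing, was at 10.8, 9.88, 14 and 11.8 CPM in AAV-Null and 14.2, 15.4, 12.6, 10.4 and 12.5 CPM in AAV-Osm (log2 fold change 0.16, SE 0.16, adjusted p = 0.955). Of its annotated exon bases, 16.8% overlap Chrnb2 on the opposite strand, and the sources used here do not say whether counting used the strand. Eif2ak2, the kinase PKR that halts translation and the most abundant sensor per length, was at 20.4, 19.8, 20.1 and 22.1 CPM in AAV-Null and 23.4, 24.4, 20, 21.2 and 18.1 CPM in AAV-Osm. It had 1 of the narrower intervals, from -0.22 to 0.34 around a log2 fold change of 0.06. The RNA helicases Ifih1 (MDA5) and Ddx58 (RIG-I) were at -0.08 and -0.15, and Zbp1, a sensor of left-handed nucleic acid, at 0.03.

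The antiviral effectors formed the largest group, with 11 genes, of which 8 had a log2 fold change below 0 and 3 above (median -0.19). Bst2 (chromosome 8, 71534262 to 71537437, minus strand) was at 26.9, 28.3, 32.8 and 34.7 CPM in AAV-Null and 21.9, 22, 19.9, 25.3 and 17.6 CPM in AAV-Osm. All 5 AAV-Osm values lay below the lowest AAV-Null value, with means of 21.3 ± 2.87 (SD, n = 5) and 30.7 ± 3.69 (n = 4). Its log2 fold change of -0.53 (SE 0.14, 95% interval -0.83 to -0.22) had an adjusted p of 0.456 in edgeR, and over the alternatives its adjusted p ran from 0.0745 to 0.835. Ifit1 (chromosome 19, 34640889 to 34650009, plus strand), whose protein binds viral RNA that lacks cap methylation, was at 11.4, 9.96, 10 and 11.1 CPM in AAV-Null and 7.81, 8.34, 5.83, 10.8 and 5.6 CPM in AAV-Osm. Only AAV-Osm 4 reached the AAV-Null range, and the log2 fold change was -0.47 (SE 0.19, adjusted p = 0.773). Its neighbours Ifit2 and Ifit3 were at 0.06 and -0.13, and 41.1% of the 75-base stretches of Ifit3 also occur in Ifit3b, so its counts are uncertain.

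Ifitm3 was the most abundant effector per length. Its level was 128, 130, 121 and 186 CPM in AAV-Null and 148, 121, 128, 186 and 128 CPM in AAV-Osm. Each group held 1 library at 186, and the log2 fold change was 0.01 (SE 0.17, 95% interval -0.36 to 0.38). Its sign turned to -0.01 with scaling to total counts. Ifitm2 was at -0.32, and 42% of its 75-base stretches occur in other annotated transcripts, Gm45717 among them, which makes its counts uncertain. Rsad2 encodes viperin, an enzyme that makes a chain-ending nucleotide, and was at -0.28, or 0.03 without AAV-Null 4 and AAV-Osm 5. The remaining effectors were Xaf1 at -0.27, Ifi35 at -0.19, Oasl2 at -0.18 and Samhd1, which depletes nucleotides needed for reverse transcription, at 0.22. Of the annotated exon bases of Ifi35, 16.8% overlap Gm11626 on the opposite strand, so its counts are uncertain, as for Adar.

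The enzymes of ISG15, ubiquitin and ADP-ribose had 6 of 7 listed genes in the table, of which 4 had a log2 fold change below 0 and 2 above (median -0.15). Isg15, the ubiquitin-like modifier and the most abundant of the 6 per length, was at 6.02, 6.96, 7.23 and 6.36 CPM in AAV-Null and 7.33, 4.9, 7.24, 5.31 and 4.23 CPM in AAV-Osm. Its highest and lowest values were both in AAV-Osm (log2 fold change -0.19, SE 0.19, adjusted p = 0.955). Trim25, a ubiquitin ligase that activates RIG-I, was at 16.8, 15.4, 14.8 and 10.9 CPM in AAV-Null and 18.8, 19.7, 15.3, 14.5 and 17.4 CPM in AAV-Osm (0.25, SE 0.16, adjusted p = 0.927). Parp14, an ADP-ribosyltransferase, was at 15.4, 14.9, 18.7 and 13.4 CPM in AAV-Null and 20.2, 20.2, 18.8, 15.8 and 15.9 CPM in AAV-Osm (0.22, SE 0.15, adjusted p = 0.929). Both pairs of groups overlapped. Usp18, which removes ISG15 and damps interferon signalling, was at -0.19. Parp9 and its partner Dtx3l were at -0.11 and -0.20. Their exons overlap each other on opposite strands over 9.4% and 8% of their bases.

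The interferon-inducible GTPases include proteins that coat and disrupt the vacuoles of intracellular pathogens. Their genes had the lowest median of the role groups at -0.29, with 4 of 5 below 0. Gbp2 (chromosome 3, 142620663 to 142638008, plus strand) was at 21.4, 20.8, 18.9 and 18.1 CPM in AAV-Null and 14.5, 9.54, 13.4, 17.2 and 15.6 CPM in AAV-Osm. The groups did not overlap, with means of 14.1 ± 2.90 (SD, n = 5) in AAV-Osm and 19.8 ± 1.54 (n = 4) in AAV-Null, and the log2 fold change was -0.50 (SE 0.17, 95% interval -0.85 to -0.14, adjusted p = 0.606, edgeR). In limma-voom with quality weights, the 1 alternative that called any of the 34 genes, it was -0.72 (adjusted p = 0.034), while over all alternatives the adjusted p ran from 0.034 to 1. Gbp7 (chromosome 3, 142530336 to 142550151, plus strand), the most abundant GTPase per length, was at 54.6, 49.6, 43.1 and 57 CPM in AAV-Null and 30.4, 36.7, 39.2, 52 and 26.1 CPM in AAV-Osm. AAV-Osm 4 lay inside the AAV-Null range and the other AAV-Osm libraries below it (log2 fold change -0.47, SE 0.18, adjusted p = 0.74). Gbp3, their neighbour on chromosome 3, was at -0.29, and Gbp7 shares 11.3% of its 75-base stretches with Gm43802 and Gbp3. Igtp and Irgm1, of the immunity-related family, were at -0.28 and 0.01, and the sign of Irgm1 turned to -0.0026 with scaling to total counts. Igtp shares 7.8% of its 75-base stretches with Irgm2.

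**Figure D4:**
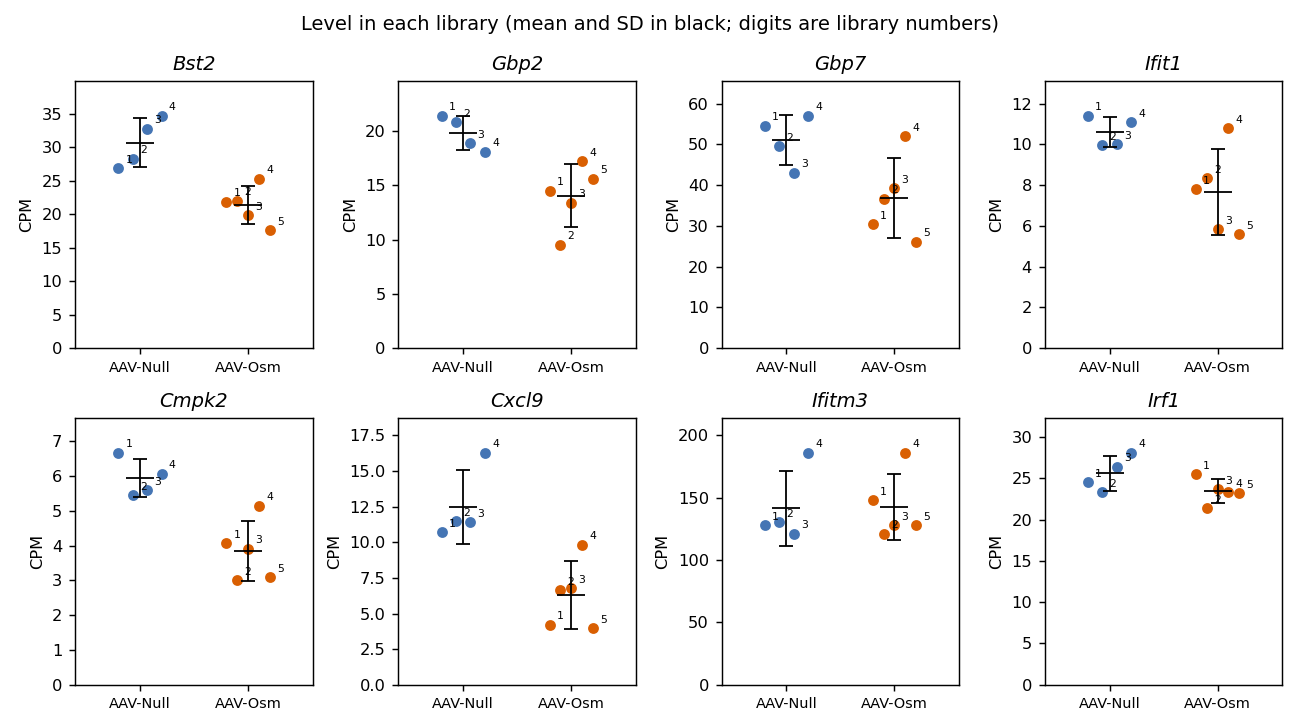
Level in CPM of selected genes in each of the 9 libraries, with mean and SD of each group in black. In Bst2 and Gbp2 all 5 AAV-Osm points lie below the 4 AAV-Null points, and in Ifitm3 each group has 1 library at 186 CPM.

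The promoter motifs were set beside the fold changes. The 16 genes with ISRE letters had a median log2 fold change of -0.23, with 12 below 0, and the 12 genes whose window lacked them had a median of -0.11, with 8 below 0. Among all genes of the table with a window, the medians were -0.01 with and 0.01 without ISRE letters. Genes with GAS letters had a median of -0.09 (6 of 11 below 0) and those without -0.19 (14 of 17). No test was made of these differences, and the genes are not independent, since several lie side by side as duplicated families.

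The 9 libraries differed in how they ranked. AAV-Null 4 was the highest library for 10 of the 34 genes and the lowest for 6, where 19.7% and 19.3% of all genes had it highest and lowest. AAV-Osm 5 was the lowest for 13 and the highest for 2, against 15.5% and 20% of all genes. Each level was also expressed as log2 of the library's CPM over the gene's mean across libraries. The median of the antiviral effectors on this scale was 0.39 in AAV-Null 4 and -0.52 in AAV-Osm 5, and between -0.11 and 0.06 in the other 7 libraries. Without AAV-Null 4 and AAV-Osm 5 the effectors had a median log2 fold change of 0.0028, with 5 of 11 below 0. The GTPases had a median of -0.32 without them, with 5 of 5 below 0, where Irgm1 had turned to -0.10. These libraries were the extremes of the effectors, so leaving them out had to move the effector median towards 0. For the GTPases they were not the extremes, with medians of 0.12 and -0.09, and the contrast is no test. Bst2 was at -0.40, Ifit1 at -0.36, Gbp2 at -0.58 and Gbp7 at -0.32 without this pair, none past the adjusted threshold.

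**Figure D5:**
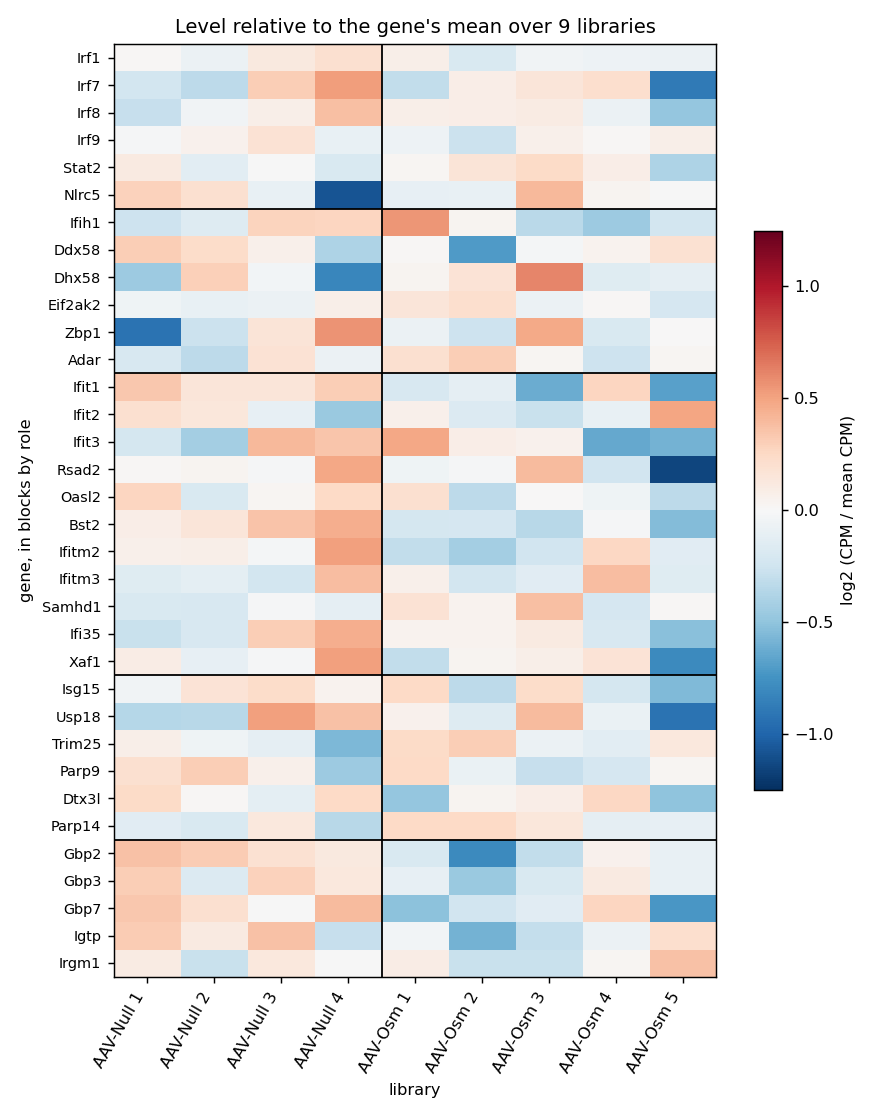
Level of each gene in each library as log2 of CPM over the gene's mean of the 9 libraries, in blocks by role, with red above and blue below the mean. The effectors are mostly red in AAV-Null 4 (median 0.39) and mostly blue in AAV-Osm 5 (median -0.52), and the GTPases are mostly blue in AAV-Osm 2 (median -0.46).

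Markers of other cell types were summed in the same libraries. Those of macrophages and monocytes, cells that express many of the 34 genes, had 18 of 18 genes in the table, and 0 passed the test. Their sum ran from 491 to 1028 CPM in AAV-Null, with AAV-Null 4 highest, and from 514 to 721 in AAV-Osm, and their defining gene Adgre1 was between 5.4 and 11.8 CPM in all libraries. Endothelial markers (12 of 12 in the table) ran from 1654 to 2150 CPM in AAV-Null, again highest in AAV-Null 4, and from 1452 to 1749 in AAV-Osm. Of these markers, 0 were called higher and 1 lower (Aqp1, named after its values were seen), beside 0.0834% and 0.0379% of all genes. The defining endothelial gene Pecam1 was at 119 ± 7.60 CPM in AAV-Null and 115 ± 22.8 in AAV-Osm. T and NK cell markers had 2 of 18 genes in the table and summed to 1.52 to 2.74 CPM, and Cd3e was not analysed here. B cell markers (6 of 7) summed to 5.36 to 6.65 CPM in AAV-Null and 6.88 to 10.1 in AAV-Osm, with Cd79a at 1.08 to 3.09, and neutrophil markers (4 of 8) to 6.47 to 13.9 and 5.06 to 9.58, with S100a8 at 0.708 to 4.28. Fibroblast markers (10 of 10) ran from 2327 to 3572 CPM in AAV-Null, highest in AAV-Null 4, and from 1845 to 2894 in AAV-Osm, with a median log2 fold change of -0.26 and 0 called. Pericyte and smooth muscle markers (8 of 8) ran from 298 to 457 and from 333 to 394 CPM, with AAV-Null 4 lowest. Dendritic cell markers other than Bst2 (4 in the table) summed to 3.54 to 5.11 and 4.18 to 5.54 CPM, adipocyte markers (1 of 5) to 0.206 to 1.32 and 0.38 to 1.4, and red blood cell markers (3 of 7) to 116 to 224 and 88.8 to 237. Liver-type transcripts (14 of 15) were highest in AAV-Null 3 and AAV-Null 4, at 298 and 244 CPM, against 53.6 to 149 in the other libraries, and Alb ran from 0.272 to 70.8. Cardiomyocyte markers (10 of 10) summed to 85433 to 108429 CPM in AAV-Null and 84498 to 113892 in AAV-Osm. The part of these cell types in the values of the interferon-stimulated genes was not tested.

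Of 145 further genes listed from the pathway, 127 were in the table, and 0 were called higher and 0 lower by edgeR. At an unadjusted p under 0.05, 4 had a higher and 7 a lower value in AAV-Osm, beside 2.89% and 3.09% of all genes. The groups did not overlap for 1 gene with AAV-Osm above and 2 with AAV-Osm below, beside 1.05% and 1.23% of all genes, so the counts of higher and of non-overlapping genes were near the background. Their median log2 fold change was -0.05, with 72 of 127 below 0. The interferon genes listed, Ifnb1, Ifng, Ifnk, Ifnl2 and Ifnl3, were not analysed here.

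Of the ligands, receptors and JAK-STAT genes (11 tested), the smallest p-values were those of Ifnlr1, the interferon lambda receptor chain, at 0.49 (SE 0.20, adjusted p = 0.773), and Stat3, the main mediator of oncostatin M, at -0.25 (SE 0.20, adjusted p = 0.935). Among 11 feedback inhibitors, Cish was at -0.57 (SE 0.18, adjusted p = 0.579) and Socs3, an inhibitor that STAT3 induces, at 0.54 (SE 0.22, adjusted p = 0.779). Of 16 genes of sensing upstream of interferon, Tmem173, which encodes STING, was at 0.69 (SE 0.28, adjusted p = 0.769) and Aim2, a DNA sensor, at 0.65 (SE 0.31, adjusted p = 0.833). In a list of other IRF genes and of genes for IRF2-binding proteins (8 tested), Irf2bp2, of the latter kind, was at -0.51 and Irf4 at 0.40.

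The 84 other interferon-stimulated genes tested had a median of -0.07, with 50 below 0. Cxcl9, a chemokine induced by interferon gamma that draws T cells, was at 10.7, 11.5, 11.4 and 16.3 CPM in AAV-Null and 4.23, 6.65, 6.79, 9.84 and 3.99 CPM in AAV-Osm. The groups did not overlap, and the log2 fold change was -1.0 (SE 0.25, adjusted p = 0.364). Cmpk2, a nucleotide kinase gene beside Rsad2 on chromosome 12, was at 6.67, 5.44, 5.59 and 6.06 CPM in AAV-Null and 4.07, 3, 3.91, 5.14 and 3.09 CPM in AAV-Osm. Here too all AAV-Osm values lay below AAV-Null (log2 fold change -0.64, SE 0.19, adjusted p = 0.518). The gene without overlap in the other direction, named after its values were seen, was Casp4, an inflammatory caspase that binds bacterial lipopolysaccharide. It was at 3.46, 3.17, 4.24 and 4.35 CPM in AAV-Null and 8.57, 6.27, 5.13, 4.7 and 4.75 CPM in AAV-Osm (log2 fold change 0.64, SE 0.22, adjusted p = 0.627).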

How the data were processed

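The values used are the raw counts per gene that the authors deposited for 9 mouse heart apex libraries, read as 75-base paired ends per the labels' protocols. Alignment and counting used mm10 with STAR 2.5.2b, Subread 1.5.1 and featureCounts, per the submitters' processing notes. The sources used here give neither the annotation nor how strand and multiply matching reads were handled. The table held 13192 named genes and 4141 blank lines, which were left out.

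Groups come from the treatment label. The test was the two-sided quasi-likelihood F test of edgeR 4.0.16 (R 4.3.3) with TMM scaling, filterByExpr (0 genes removed) and robust dispersions, with Benjamini-Hochberg adjustment over all genes at 0.05. The 95% intervals use the test's standard error. The script was tested on simulated counts. Between libraries, the smallest chi-square per degree of freedom was 6.52 and 0 pairs were identical. Totals set the precision: Dhx58 and Nlrc5 rest on 17 to 49 and 28 to 83 counts per library.

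The genes and lists were chosen with earlier results of these data known. Values in every library are given for genes whose groups did not overlap, the 2 with the smallest p and the most abundant per length of each role group, and in each pathway list the 2 with the smallest p were named. Alternatives were DESeq2 1.42.0, limma 3.58.1 (voom), other scalings and filters, and libraries left out. Shared 75-base stretches and overlapping exons come from GENCODE M21 transcripts and annotation, and promoters from RefSeq. A gene of the pathway lists is not reported here.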

Additional observations from a re-analysis of the deposited data

Results flagged for a closer look

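In each group the highest and lowest library of every gene were compared with the rest by Dixon's ratio at the 95% level. Of 68 gene and group pairs, 4 stood out, where chance gives about 1 in 20. Rsad2 was at 86.1 CPM in AAV-Null 4 against 61.3 to 62.8 in the other AAV-Null libraries. Ifitm2 was at 152 CPM in AAV-Null 4 against 106 to 113, and Ifitm3 at 186 CPM against 121 to 130. Nlrc5 was at 3.85 CPM in AAV-Osm 3 against 2.71 to 2.96 in the other AAV-Osm libraries.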

How the results depend on the processing

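Over 19 alternatives, 21 of the 34 genes kept the sign of their log2 fold change in all and 13 turned in at least 1 (48 of 646 values). The alternative without the low-count filter repeated the main fit, since the filter removed 0 genes, so its values could not turn. Turns of sign were not counted over all genes. The number called higher was 0 in every alternative and the number called lower 0 in all but limma-voom with quality weights, where it was 1 (Gbp2, -0.72). The median was -0.03 without AAV-Null 4 and AAV-Osm 5, -0.04 without AAV-Null 3 and AAV-Null 4, and between -0.17 and -0.08 with each library left out in turn. Genes turned with limma-voom to 0.14 (Irf7), 0.10 (Irf8), -0.09 (Nlrc5), 0.09 (Ifih1), -0.18 (Ifit2), 0.21 (Ifit3), 0.11 (Ifi35), 0.15 (Usp18) and -0.02 (Irgm1). Without AAV-Null 4 and AAV-Osm 5 they turned to 0.09 (Irf7), 0.13 (Irf8), -0.07 (Nlrc5), 0.05 (Ifih1), -0.19 (Ifit2), 0.09 (Ifit3), 0.03 (Rsad2), 0.03 (Ifi35), 0.0028 (Xaf1), 0.06 (Usp18) and -0.10 (Irgm1). Without AAV-Null 3 and AAV-Null 4 they turned to 0.18 (Irf7), 0.11 (Irf8), -0.19 (Nlrc5), 0.19 (Ifih1), -0.14 (Ifit2), 0.26 (Ifit3), 0.15 (Ifi35) and 0.26 (Usp18). With total counts Ifitm3 was at -0.01 and Irgm1 at -0.0026. With each library left out in turn, Irf8 ran from -0.19 to 0.03, Nlrc5 from -0.08 to 0.28, Ifih1 from -0.28 to 0.0044, Zbp1 from -0.17 to 0.27, Ifit2 from -0.07 to 0.15, Ifit3 from -0.30 to 0.01, Ifitm3 from -0.10 to 0.17 and Irgm1 from -0.10 to 0.08. The cause was not tested. With fewer libraries the fit had fewer samples. The labels give no pairing of libraries between the groups, and no paired analysis was made.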
